A study of Homo sapiens with 4 samples.

Results

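The enzymes that write 5-methylcytosine (5mC) into DNA and those that remove it were followed by RNA-Seq of FADU cells, a human line established from a squamous carcinoma of the hypopharynx, in 4 libraries. The 10 genes were chosen by name and not by their values: TET1, TET2 and TET3, TDG, MBD4, DNMT1, UHRF1, DNMT3A, DNMT3B and OGT. Each stood on 1 row of a table of 62077 rows. The 4 groups had 1 library each: N-scr (scrambled control, normoxia), N-si (TET1-si, normoxia), H-scr (scrambled control, hypoxia) and H-si (TET1-si, hypoxia). Hypoxia was 1% oxygen with 5% CO2 and 94% nitrogen for 19 h, and the normoxia libraries carry no stated oxygen level. The study's methods describe TET1-si as a short hairpin RNA against TET1 delivered by a lentiviral vector with puromycin selection marker, and the scrambled control as a hairpin in the same vector. All 4 libraries therefore came from infected cells, the knockdown rests on 1 hairpin, and the TET1-si and scrambled cells are separate infected populations. The study made these libraries to find genes whose response to hypoxia changes when TET1 is lowered, and the levels below show how the other enzymes of DNA methylation stood in the same cells.

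In mammalian DNA, methyl groups are placed on cytosines that stand before guanines (CpG sites). DNMT3A and DNMT3B methylate such sites anew, and DNMT1, led to newly copied DNA by UHRF1, restores the marks after replication. The TET enzymes oxidise 5mC to 5-hydroxymethylcytosine and beyond, using oxygen, iron and 2-oxoglutarate. TDG cuts out the further oxidised bases and MBD4 cuts out thymine left when 5mC loses its amino group, after which base excision repair puts back an unmethylated cytosine. OGT, which attaches N-acetylglucosamine to proteins, binds TET proteins.

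Where 4 values follow each other with no library named, they stand in the order N-scr, N-si, then H-scr, H-si. Values were FPKM (fragments scaled by exon length and by library size), as deposited. FPKM are scaled by length, so levels of different genes can be set side by side. With 1 library per group no difference has a replicate check, and each ratio compares 2 libraries and not the conditions. No test between groups was made: a fit of added oxygen and hairpin terms would leave 1 residual degree of freedom, which is the difference between the 2 hypoxia responses itself. A ratio is given with a 95% counting interval (Clopper-Pearson, exact) from approximate reads, which covers counting error only. Depth, recovered from low values of 1-exon genes, was between 22500000 reads (H-si) and 24500000. As a check of the line, 8 epithelial markers were listed, not all of them particular to squamous cells. KRT14 was under 1 FPKM in N-si, and the others were above 1 FPKM in every library. Their summed levels were 6189 FPKM in N-scr against 1989 in N-si, and 7732 in H-scr against 2872 in H-si. Both TET1-si sums were therefore below both scrambled ones. KRT5, KRT8 and KRT18 made up most of these sums, and the list did not move as 1: CDH1 (179, 267, 292 and 399 FPKM) and EPCAM (155, 206, 102 and 163) were higher after TET1-si in both oxygen states. KRT14 stood at 42.1, 0.487, 99.9 and 1.41 FPKM and TP63 at 50.7, 42.1, 54.8 and 53.4, in the same order. Keratin genes have near-identical copies that can share reads. Of the markers of other cells, 3 of 4 leukocyte markers (PTPRC, CD3E and LYZ) and 4 of 5 fibroblast markers were under 1 FPKM in every library. COL1A1 (5.29 to 37.0 FPKM), CD68 (19.8 to 26.8) and the endothelial genes CDH5 (8.75 to 45.5) and VWF (0.160 to 2.94) were above that in some or all libraries. Summed levels were 5.30, 14.0, 28.7 and 37.2 FPKM for the fibroblast list, 21.5, 26.4, 20.1 and 26.9 for the leukocyte list, and 8.91, 22.2, 17.8 and 48.4 for the 2 of 3 endothelial markers matched. The part of these differences in the levels below was not tested.

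The sequences that the knockdown and the later comparisons turn on are shown first. The hairpin's target is given as the study lists it, in capitals because every base is part of the target.
TET1 hairpin target: CCTTGATAGAATCACTCAGTT
This stretch of 21 bases lay on chromosome 10, 70451833 to 70451853 (hg19, plus strand), in exon 12 of 12 of TET1, in the 3′ UTR, 265 bases past the end of the coding sequence. Among annotated transcripts an exact match was found in TET1 alone, and the closest stretch in any transcript of the other 9 genes had 6 mismatches (OGT). The study also cloned fragments upstream of TET1 for reporter assays. One of them is shown, because TET1 was higher in hypoxia than in normoxia with either hairpin, with its 8 CpG sites in capitals.
TET1 upstream fragment: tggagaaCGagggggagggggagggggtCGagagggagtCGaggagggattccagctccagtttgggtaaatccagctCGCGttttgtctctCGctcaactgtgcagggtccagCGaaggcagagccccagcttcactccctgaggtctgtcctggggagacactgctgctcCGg
Its 175 matched bases lay at chr10:70319959-70320133 (hg19, plus strand), between 454 and 280 bases upstream of the gene start in the table. The core of the hypoxia response element (ACGTG or GCGTG, either strand) was not among its letters. The study numbers the fragment from a start site that lies within it. Its reporter assays showed activation of this fragment by hypoxia and the hypoxia-inducible factor HIF-2α. It also reports binding of HIF-2α to the proximal TET1 promoter by chromatin immunoprecipitation.

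Promoters of 300 bases, 250 before and 50 after the RefSeq start, were taken from a RefSeq table on GRCh38.p14, and all 10 genes had one that matched hg19 at 1 place. DNMT1 and UHRF1 are shown because they were the 2 genes at least 2-fold lower in H-si than in both N-si and H-scr. Capitals mark an E2F motif (TTTCCCGC, TTTCGCGC, TTTGCCGC or TTTGGCGC, either strand).
DNMT1 promoter: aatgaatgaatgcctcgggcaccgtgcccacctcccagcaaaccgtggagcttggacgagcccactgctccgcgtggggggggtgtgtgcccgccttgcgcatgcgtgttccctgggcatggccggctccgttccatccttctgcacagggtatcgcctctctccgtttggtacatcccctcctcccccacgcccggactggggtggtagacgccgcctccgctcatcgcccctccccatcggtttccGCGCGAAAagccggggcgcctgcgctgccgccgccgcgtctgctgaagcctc
UHRF1 promoter: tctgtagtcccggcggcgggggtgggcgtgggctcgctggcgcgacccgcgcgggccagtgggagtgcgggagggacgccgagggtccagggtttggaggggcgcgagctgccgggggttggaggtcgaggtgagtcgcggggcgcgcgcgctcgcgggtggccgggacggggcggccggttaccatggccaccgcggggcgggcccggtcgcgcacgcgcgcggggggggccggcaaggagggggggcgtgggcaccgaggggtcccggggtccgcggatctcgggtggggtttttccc
They lay at chr19:10305580-10305879 (hg19, minus strand) and at chr19:4910129-4910428 (hg19, plus strand). DNMT1 was the 1 of 10 promoters with an E2F match, TTTCGCGC on the opposite strand over the start, and 3.31% of 35116 promoters held any of these motifs. The hypoxia core was present in 6 of the 10 promoters (TET2, TDG, DNMT1, DNMT3A, UHRF1 and MBD4), against 48.4% of all promoters. The promoters held from 3 CpG sites (DNMT3B) to 46 (UHRF1), with a median of 14 over all promoters. The RefSeq start lay 39818 bases downstream of the start of the TET1 locus in the table and 36333 downstream of that of DNMT1. It lay 90327 bases downstream for DNMT3A, 17467 for DNMT3B and 7287 for UHRF1, and up to 1001 bases away for the other 5 genes, so the promoter in use was not determined from these data.

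The levels spanned more than 3 orders of magnitude. DNMT1 and OGT stood highest and TET1 lowest in every library, and DNMT1 led in 3 of them while OGT led in H-si. A mean of at least 1 FPKM was reached by 9 of the 10 genes, all but TET1, and these 9 were above 1 FPKM in every library. Most neighbours in the order of levels within a library had counting intervals that did not overlap. Those that did overlap were TET3 and TET2 in H-scr, TDG and DNMT3A in H-si, and DNMT3B and TET3 in H-si.

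**Figure D1:**
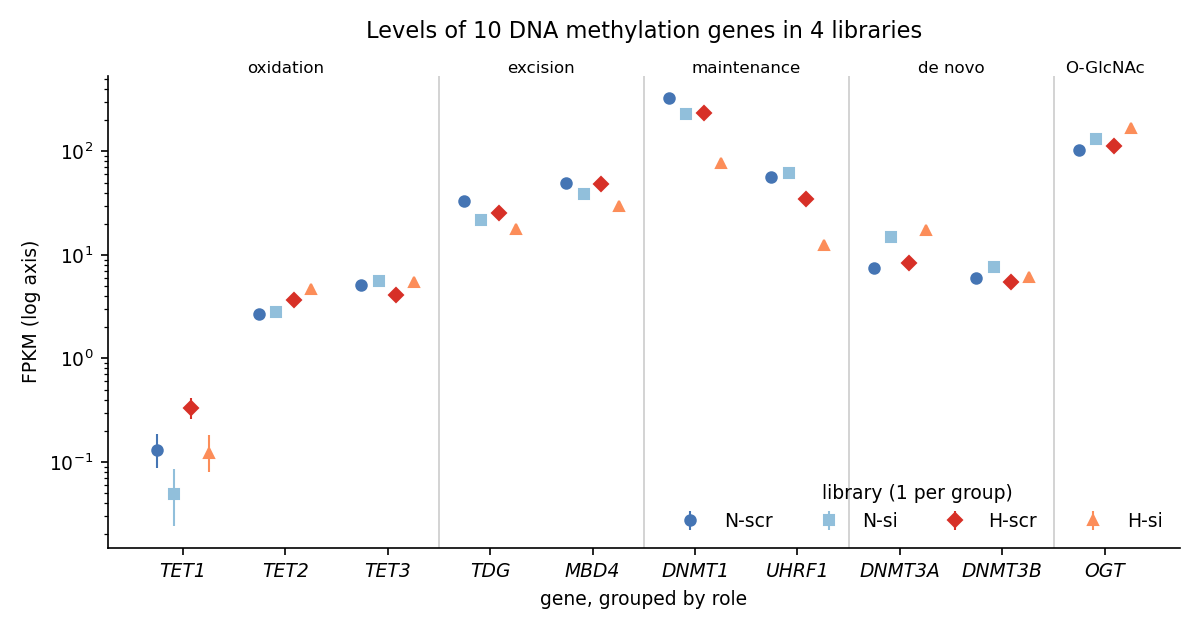
FPKM (log axis) of the 10 genes, grouped by role, in the 4 libraries (1 point per library; bars are 95% counting intervals, smaller than the points for most genes). DNMT1 stands at 331 FPKM in N-scr and at 78.0 in H-si, and TET1 stayed under 0.4 FPKM throughout.

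Among the TET enzymes, TET1 (ENSG00000138336, chromosome 10, 70320413 to 70454239, plus strand, hg19), the target of the hairpin, was at 0.129 FPKM in N-scr against 0.0493 in N-si, and at 0.331 in H-scr against 0.122 in H-si. Both TET1-si libraries were below the scrambled library of the same oxygen state, while H-si was close to N-scr. These levels rested on about 28, 11, 76 and 26 reads. H-si over H-scr was 0.369 (0.229 to 0.588) and N-si over N-scr was 0.381 (0.165 to 0.761). H-scr over N-scr was 2.56 (1.63 to 4.07) and H-si over N-si was 2.48 (1.23 to 5.77). A row of the table named after a clone (RP11-119F7.4, chromosome 10, 70451421 to 70452698) lay over the TET1 3′ end and over the hairpin's target, at 0.641, 0, 0.299 and 0.327 FPKM in the same order. It would hold about 16, 0, 8 and 8 reads if it were 1 exon, and without strand such reads cannot be told apart from those of TET1. With those reads added, a choice made after the data were seen, TET1 had 44, 11, 84 and 34 reads. The ratios became 0.441 (0.287 to 0.664) for TET1-si under hypoxia, 0.234 (0.109 to 0.460) for TET1-si under normoxia, 1.78 (1.22 to 2.63) for hypoxia in scrambled cells and 3.37 (1.67 to 7.36) for hypoxia in TET1-si cells. The 4 directions held either way, and the normoxia ratio moved by more than 1.5 times.

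TET2 (ENSG00000168769, chromosome 4, 106067032 to 106200973, plus strand) was at 2.67 FPKM in N-scr against 2.82 in N-si, and at 3.63 in H-scr against 4.73 in H-si. Both hypoxia libraries were above both normoxia libraries. H-scr over N-scr was 1.36 (1.22 to 1.51), H-si over N-si 1.67 (1.52 to 1.85) and H-si over H-scr 1.30 (1.19 to 1.43). N-si over N-scr was 1.06, with an interval that held 1 (0.943 to 1.18), and median-of-ratios scaling turned it to 0.941.

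TET3 (ENSG00000187605, chromosome 2, 74229840 to 74329698, plus strand) was at 5.08 FPKM in N-scr against 5.58 in N-si, and at 4.09 in H-scr against 5.52 in H-si. H-scr was the lowest library and the other three lay within a narrow range. H-scr over N-scr was 0.805 (0.744 to 0.871) and H-si over H-scr was 1.35 (1.25 to 1.46), whereas H-si over N-si was 0.990 (0.922 to 1.06).

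As a sum, the 3 TET genes had 7.88 FPKM in N-scr against 8.45 in N-si, and 8.05 in H-scr against 10.4 in H-si. TET1 was 1.64% of that sum in N-scr against 0.584% in N-si, and 4.11% in H-scr against 1.18% in H-si. TET3 was 64.5% and 66.0% of it in the normoxia libraries and 50.8% and 53.2% in the hypoxia libraries, and TET2 was 33.9% and 33.4%, then 45.1% and 45.6%. TET transcripts other than TET1 therefore made up more than 95% of the sum in each library, and the summed level was highest where TET1-si and hypoxia were combined.

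**Figure D2:**
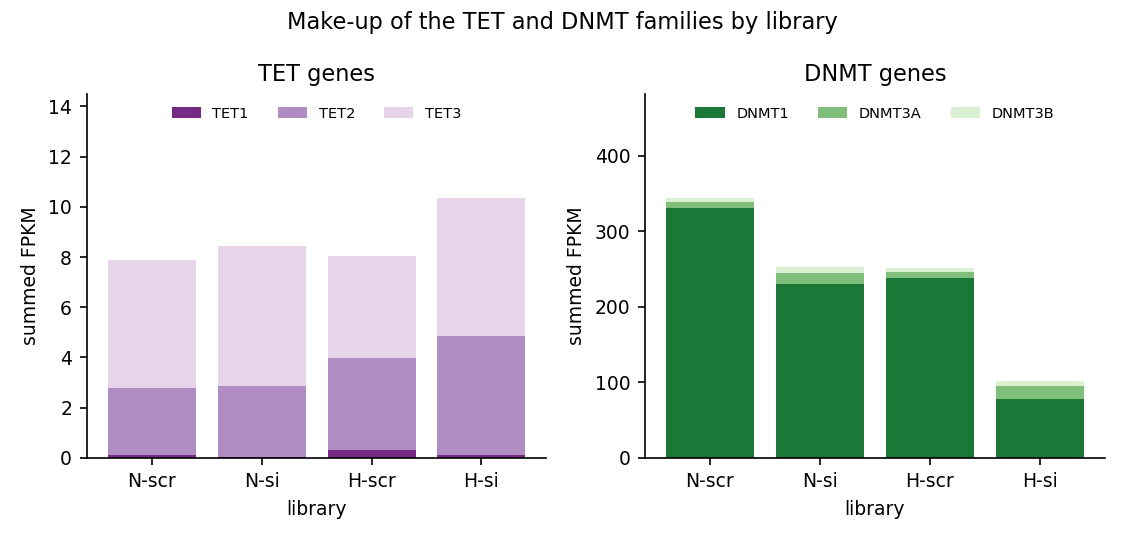
Summed FPKM of the 3 TET genes (left) and the 3 DNMT genes (right) in each library, with the part of each gene stacked. The TET sum stays between 7.88 and 10.4 with TET1 as a thin band at the base, while the DNMT sum goes from 344 in N-scr to 101.5 in H-si.

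The glycosylases were lower after TET1-si in both oxygen states. TDG (ENSG00000139372, chromosome 12, 104359582 to 104382652, plus strand) was at 32.9 FPKM in N-scr against 21.6 in N-si, and at 25.3 in H-scr against 17.9 in H-si. Both TET1-si libraries were below both scrambled libraries. The ratio of TET1-si to scrambled was 0.656 (0.615 to 0.701) under normoxia and 0.706 (0.656 to 0.760) under hypoxia. The hypoxia ratio was 0.768 (0.722 to 0.818) in scrambled and 0.827 (0.766 to 0.892) in TET1-si cells. The genes around TDG were lower as well: over the 25 expressed protein-coding genes on each side, the median log2(FPKM + 0.1) difference was -0.56 under hypoxia and -0.35 under normoxia, against -0.50 and -0.61 for TDG itself. TDG minus its neighbours was 0.06 under hypoxia and -0.25 under normoxia, and the part of this stretch of chromosome 12 in the TDG values was not tested. TDG has processed pseudogene copies, and reads shared with them cannot be told apart in this table.

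MBD4 (ENSG00000129071, chromosome 3, 129149787 to 129158878, minus strand) was at 49.7 FPKM in N-scr against 39.2 in N-si, and at 48.5 in H-scr against 29.8 in H-si. Again both TET1-si libraries were below both scrambled ones, with ratios of 0.789 (0.744 to 0.837) under normoxia and 0.614 (0.575 to 0.655) under hypoxia. The hypoxia ratio in scrambled cells was 0.976, with an interval that held 1 (0.924 to 1.03), and it was 0.760 (0.710 to 0.812) in TET1-si cells. Neighbouring genes had median differences of -0.26 under hypoxia and -0.18 under normoxia after TET1-si, against -0.70 and -0.34 for MBD4.

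The maintenance pair, DNMT1 and UHRF1, stood lowest in H-si. DNMT1 (ENSG00000130816, chromosome 19, 10244021 to 10341962, minus strand) was at 331 FPKM in N-scr against 229.8 in N-si, and at 238 in H-scr against 78.0 in H-si, on about 38368, 28493, 29502 and 8883 reads. N-si and H-scr were close to each other, and H-si was far below both. H-scr over N-scr was 0.719 (0.708 to 0.730) and N-si over N-scr was 0.694 (0.684 to 0.705). H-si over H-scr was 0.328 (0.320 to 0.336) and H-si over N-si was 0.339 (0.331 to 0.348). The locus also spans S1PR2, at a mean of 1.03 FPKM, which is small beside DNMT1.

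UHRF1 (ENSG00000034063, chromosome 19, 4903092 to 4962165, plus strand) was at 56.5 FPKM in N-scr against 61.6 in N-si, and at 34.7 in H-scr against 12.4 in H-si. The normoxia libraries were close to each other, H-scr was lower and H-si lowest. H-scr over N-scr was 0.614 (0.587 to 0.642) and H-si over N-si was 0.201 (0.188 to 0.215), which is 4.97-fold lower. After TET1-si the ratio was 0.357 (0.332 to 0.383) under hypoxia and 1.09 (1.05 to 1.13) under normoxia, and the latter became 0.970 with median-of-ratios scaling. DNMT1 exceeded UHRF1 5.85-fold in N-scr, 3.73-fold with N-si, 6.85-fold with H-scr and 6.29-fold with H-si.

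The hypoxia response in TET1-si cells divided by that in scrambled cells was 0.472 (0.459 to 0.486) for DNMT1 and 0.328 (0.302 to 0.355) for UHRF1. These were the 2 of the 9 genes at or above 1 FPKM that were at least 2-fold lower by this measure, and 7.86% of 15057 genes with a mean of at least 1 FPKM were. None of the 9 was 2-fold higher, against 4.87% of genes. For the rest the ratio was 1.23 (1.07 to 1.43) for TET2, 1.23 (1.11 to 1.37) for TET3, 1.17 (1.13 to 1.20) for OGT and 0.778 (0.713 to 0.848) for MBD4. It held 1 for DNMT3A at 1.02 (0.943 to 1.11), for DNMT3B at 0.877 (0.749 to 1.03), for TDG at 1.08 (0.976 to 1.19) and, over a wide range, for TET1 at 0.968 (0.417 to 2.59).

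Genes of DNA replication were lowest in the same library. DNMT1 and UHRF1 act on newly copied DNA, so 16 S phase markers (among them the MCM2 to MCM7 helicase genes, the origin factors CDC6 and CDT1, CCNE2 and RRM2) were set beside them. All 16 were lowest in H-si, as were 25.9% of all genes with a mean of at least 1 FPKM. Their summed level was 2362 FPKM in N-scr against 2194 in N-si, and 1567 in H-scr against 542 in H-si. Their median log2 difference was -0.65 for hypoxia in scrambled cells, -2.16 for hypoxia in TET1-si cells, -1.43 for TET1-si under hypoxia and 0.01 for TET1-si under normoxia. DNMT1 had -0.48, -1.56, -1.61 and -0.53 and UHRF1 had -0.70, -2.30, -1.48 and 0.12 in the same order. After TET1-si under normoxia the markers were divided, with 8 higher and 8 lower, over a range from -1.22 to 1.05 that holds both genes. The part of the share of cells in S phase in these levels was not tested, and in bulk samples fewer cells of a kind and less RNA per cell cannot be told apart.

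**Figure D3:**
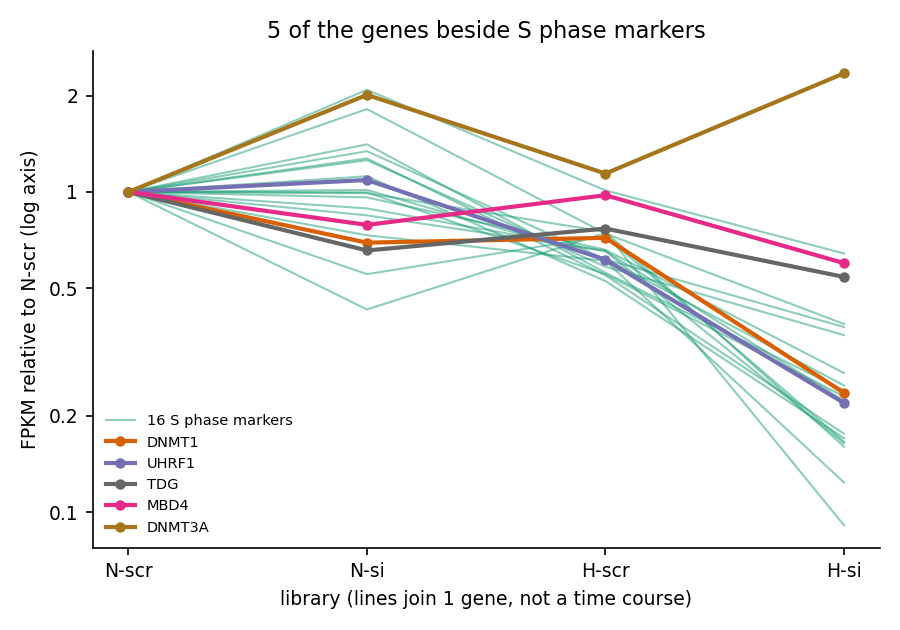
FPKM relative to N-scr (log axis) of DNMT1, UHRF1, TDG, MBD4 and DNMT3A (thick lines) and of 16 S phase markers (thin lines) in the 4 libraries; lines join the values of 1 gene. DNMT1 and UHRF1 end among the S phase markers in H-si, TDG and MBD4 end above all of them but CCNE2, and DNMT3A goes the other way.

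The de novo enzymes did not share this pattern. DNMT3A (ENSG00000119772, chromosome 2, 25455845 to 25565459, minus strand) was at 7.41 FPKM in N-scr against 14.9 in N-si, and at 8.45 in H-scr against 17.4 in H-si. Both TET1-si libraries were well above both scrambled libraries. The ratio of TET1-si to scrambled was 2.01 (1.89 to 2.14) under normoxia and 2.06 (1.94 to 2.17) under hypoxia, and the hypoxia ratio was 1.14 (1.07 to 1.22) in scrambled and 1.17 (1.11 to 1.22) in TET1-si cells. The 25 genes on each side of DNMT3A had median log2 differences of 0.23 under hypoxia and 0.28 under normoxia after TET1-si, and DNMT3A lay 0.80 and 0.72 above them.

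DNMT3B (ENSG00000088305, chromosome 20, 31350191 to 31397162, plus strand) was at 6.01 FPKM in N-scr against 7.65 in N-si, and at 5.51 in H-scr against 6.15 in H-si. N-si was the highest library and the others were close together. N-si over N-scr was 1.27 (1.14 to 1.42), H-si over H-scr was 1.12 (0.992 to 1.26), H-si over N-si was 0.805 (0.722 to 0.899) and H-scr over N-scr was 0.918 (0.814 to 1.03).

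The make-up of the DNMT family differed accordingly. The 3 genes summed to 344 FPKM in N-scr against 252 in N-si, and 252 in H-scr against 101.5 in H-si. DNMT1 was 96.1% of the sum in N-scr against 91.1% in N-si, and 94.5% in H-scr against 76.8% in H-si, and DNMT3A was 2.15%, 5.90%, 3.36% and 17.1%. The level of DNMT1 was 44.7 times that of DNMT3A in N-scr against 15.4 times in N-si, and 28.1 times in H-scr against 4.49 times in H-si.

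OGT (ENSG00000147162, chromosome X, 70752933 to 70795747, plus strand) was at 102 FPKM in N-scr against 131 in N-si, and at 112 in H-scr against 168 in H-si. Both TET1-si libraries were above both scrambled libraries. H-scr over H-si was 0.667 (0.653 to 0.681), N-si over N-scr was 1.29 (1.26 to 1.32), H-si over N-si was 1.28 (1.25 to 1.31) and H-scr over N-scr was 1.10 (1.07 to 1.12).

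**Figure D4:**
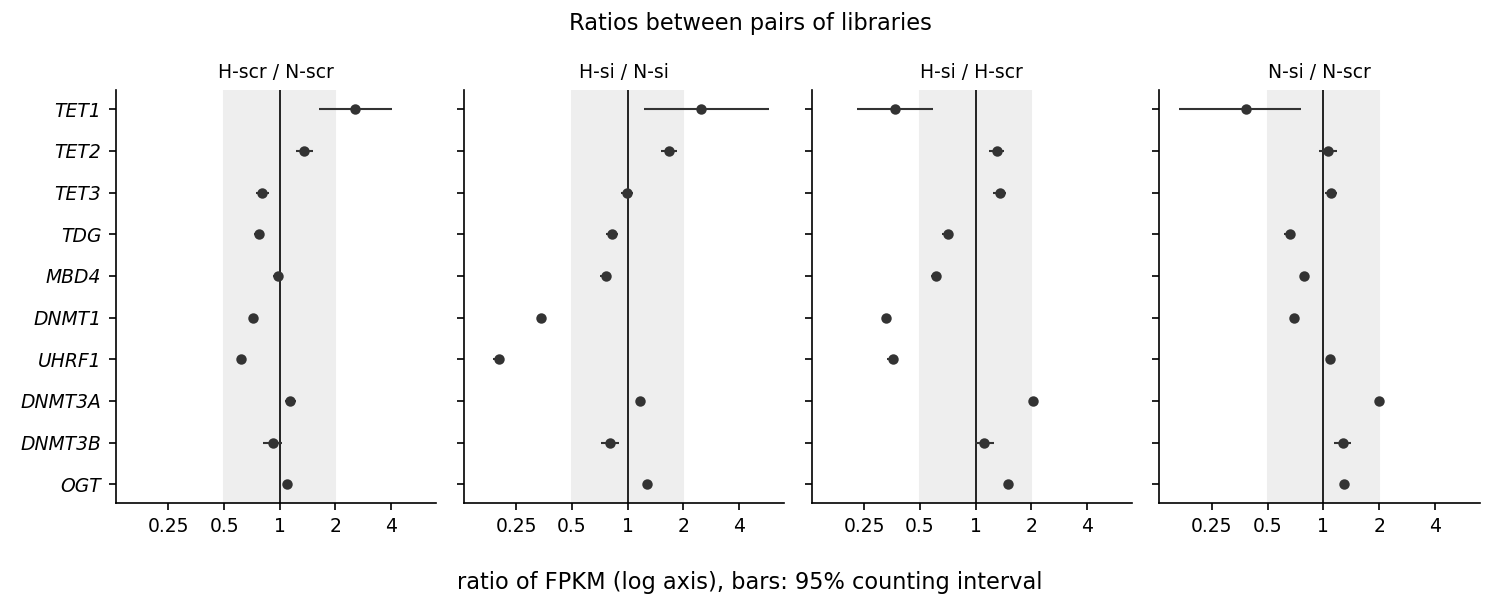
Ratio of FPKM between pairs of libraries (log axis) for the 10 genes; bars are 95% counting intervals, the line marks 1 and the grey band spans ratios from 0.5 to 2. DNMT1 and UHRF1 lie left of the band in the H-si / N-si and H-si / H-scr panels only, and TET1 lies outside it in all 4 panels on few reads, and DNMT3A touches its right edge in both TET1-si panels (2.06 and 2.01).

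By size, few of these genes differed 2-fold. Differences of log2(FPKM + 0.1) of at least 1 were counted over the 9 genes at or above a mean of 1 FPKM, beside the share of all 15057 such genes. In hypoxia in scrambled cells 0 were higher and 0 lower, with 12.9% and 4.53% of all genes. Under hypoxia against normoxia with TET1-si, 0 were higher and 2 lower (DNMT1 and UHRF1), with 12.5% and 8.66% of all genes. After TET1-si under hypoxia 1 was higher (DNMT3A) and 2 lower (DNMT1 and UHRF1), with 12% and 8.35% of all genes. After TET1-si under normoxia 0 were higher and 0 lower, with 12.1% and 5.56% of all genes, and DNMT3A missed the limit at a log2 difference of 0.998 once the pseudocount was added. TET1, under the minimum level, was past 2-fold by ratio in all 4 comparisons but not on this scale, at 0.91, 0.57, -0.96 and -0.62. The median difference of the 9 genes was -0.12, -0.27, 0.15 and 0.12 in these 4 comparisons, against 0.05, 0.03, 0.10 and 0.15 for all genes. Counting intervals of the ratios stood above 1 for 3 of the 9 genes and below 1 for 4 in hypoxia in scrambled cells (39.4% and 35.3% of 14602 genes with a length), for 3 and 5 in TET1-si cells (39.7% and 38.2%), for 4 and 4 after TET1-si under hypoxia (44.5% and 32.9%) and for 5 and 3 under normoxia (47.3% and 27.7%). DNMT3A's count under hypoxia was lost with median-of-ratios or upper-quartile scaling and with a pseudocount of 1.

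By direction, TET2, DNMT3A and OGT were higher under hypoxia with either hairpin, with 40.8% of all genes, and the other 6 were lower in both, with 35.7%. TET3 and MBD4 were close to 1 in one of the states, and with TPM or upper-quartile scaling TET3 was higher in TET1-si cells (1.09 and 1.07) and MBD4 higher in scrambled cells (1.06 and 1.008). After TET1-si, TET2, TET3, DNMT3A, DNMT3B and OGT were higher in both oxygen states, with 46.2% of all genes, and TDG, DNMT1 and MBD4 were lower in both, with 28.7%. TET2 and TET3 turned lower under normoxia with median-of-ratios scaling (0.941 and 0.977), as did UHRF1 (0.970), and TET2 also with upper-quartile scaling (0.972). H-si was the lowest library for 4 of the 9 genes (TDG, MBD4, DNMT1 and UHRF1), with 25.9% of all genes, and the highest for 3 (TET2, DNMT3A and OGT), with 35.8%. The study selected genes by 3 inequalities: a level in H-scr more than 2 times that of H-si, a level in N-scr below H-scr, and a level in N-si no higher than N-scr. TET1, the target of the hairpin, met all 3, and 0 of the other 9 genes did, with 3.84% of all genes.

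**Figure D5:**
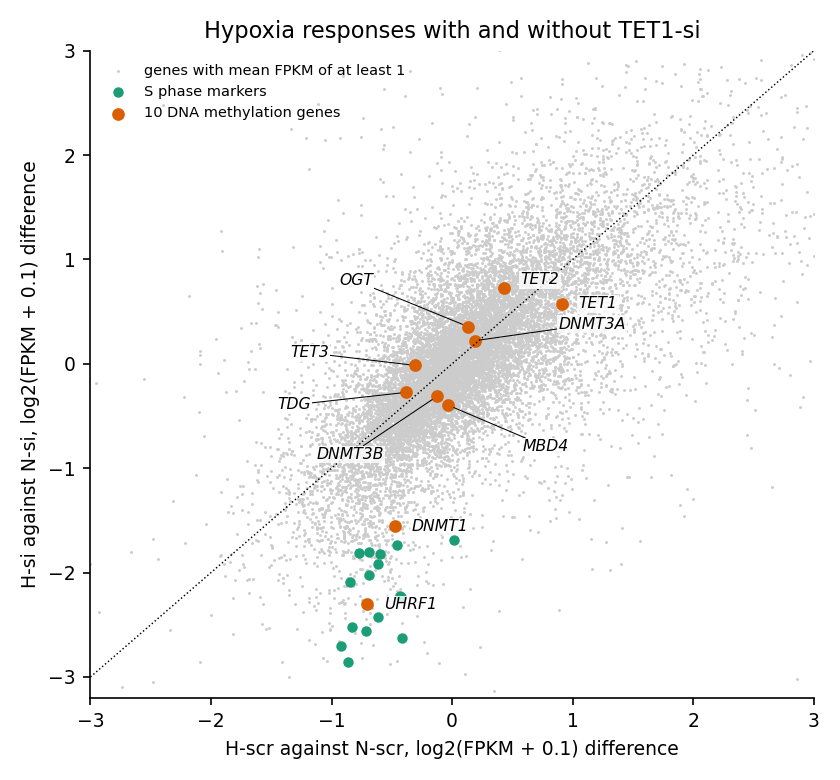
Differences of log2(FPKM + 0.1) between hypoxia and normoxia in scrambled cells (x axis) and in TET1-si cells (y axis) for genes with a mean of at least 1 FPKM (grey), 16 S phase markers (green) and the 10 genes (orange); the dotted line marks equal differences, and genes outside the axes are not shown. DNMT1 (-0.48 and -1.56) and UHRF1 (-0.70 and -2.30) lie far below the line beside the S phase markers, and the other 8 genes lie near it.

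Genes with the most similar profile over the 4 libraries were sought by the distance between centred log2(FPKM + 0.1) values, among about 12003 protein-coding genes. With 4 libraries many genes come close, and the distances are a description. For UHRF1 the nearest were RFC4 (88.1, 99.0, 57.2 and 20.7 FPKM), which loads the replication clamp, then FEN1 and ZNF367, and 16 genes lay within a distance of 0.25. For DNMT3A they were PIGC (13.3, 26.1, 14.6 and 30.8 FPKM), ZMYM5 and ANKRD42, with 129 genes within that distance. For TET2 they were CUL9 (20.1, 22.5, 28.3 and 37.0 FPKM), AP5Z1 and GALNS, with 258. For TET1 they were IFI16 (54.4, 33.2, 100.4 and 49.97 FPKM), RASSF7 and C11orf9, with 19, on the few reads of TET1. Among the 10 genes the closest pairs were TET3 with DNMT3B (0.25), TDG with MBD4 (0.26) and TET2 with OGT (0.42). DNMT1 and UHRF1 were 0.68 apart, with N-si below N-scr for DNMT1 and above it for UHRF1.

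The factors that work with DNMT1 and UHRF1 divided. Of 12 listed partners 11 passed a mean of 1 FPKM, and DNMT3L, the regulator of DNMT3 enzymes in germ cells, was listed at 0 in all 4 libraries. After TET1-si under hypoxia 3 of the 11 were at least 2-fold lower (HELLS, CDCA7 and PCNA) and 0 higher, with 8.35% and 12% of all genes, and the list median was -0.06. In hypoxia in TET1-si cells 4 were 2-fold lower, with 8.66% of all genes. H-si was the lowest library for 6 of the 11, with 25.9% of all genes. PCNA, the replication clamp that DNMT1 binds, was at 196, 154, 125 and 46.2 FPKM. HELLS, a chromatin remodeller needed for DNA methylation, was at 68.3, 63.9, 47.8 and 17.5 FPKM, and its partner CDCA7 at 75.4, 72.8, 37.4 and 13.8 FPKM. CDCA7 was 2-fold lower under hypoxia with either hairpin. The S phase markers were lowest in H-si as well, and the part of S phase in the levels of HELLS, CDCA7 and PCNA was not tested. UHRF2, the paralogue of UHRF1, went the other way under TET1-si in hypoxia, at 79.8, 91.7, 74.8 and 101 FPKM. USP7 and HDAC1 were nearly level, at 107 and 153 FPKM in H-si against 107 and 159.7 in H-scr.

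Readers of 5mC and their relatives stayed within 2-fold after TET1-si. All 9 listed (among them MBD1, MBD2, ZBTB33, ZBTB4 and ZBTB38) passed the filter, and 0 were lowest in H-si, with 25.9% of all genes. MBD3, MBD5 and MBD6 are on the list as relatives and do not bind 5mC selectively, so the counts and medians are not of readers alone. None differed 2-fold after TET1-si in either oxygen state. Of all genes, 12% were 2-fold higher and 8.35% lower under hypoxia, and 12.1% and 5.56% under normoxia. Their median log2 difference after TET1-si was 0.30 under hypoxia and 0.11 under normoxia, against 0.10 and 0.15 for all genes, and under hypoxia 8 of the 9 were higher by any size. With hypoxia 2 of them, ZBTB4 (1.009) and ZBTB38 (1.28, log2 differences), passed 2-fold upward in TET1-si cells, and 0 in scrambled cells, with 12.5% and 12.9% of all genes. MBD2, the most abundant of them, was at 103 FPKM in N-scr against 122 in N-si, and at 51.8 in H-scr against 87.1 in H-si. Its log2 difference of 0.75 after TET1-si under hypoxia was the largest of the 9, and larger in size than those of TDG and MBD4.

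Among 11 of 12 TET partners and antagonists that passed, 3 were at least 2-fold higher after TET1-si under hypoxia, with 12% of all genes. The same 3 were 2-fold higher under normoxia, with 12.1% of all genes. The share of all genes 2-fold higher in both states at once is not given here. CXXC5, a CpG-binding protein of the family linked to TET2, was at 7.13, 15.1, 13.7 and 33.3 FPKM. NEIL1, a glycosylase that assists TDG, was at 2.80, 9.62, 11.6 and 38.2 FPKM and was also 2-fold higher under hypoxia with either hairpin. NEIL2 was at 6.55, 16.9, 4.91 and 10.4 FPKM. The list median after TET1-si was 0.15 under hypoxia and 0.20 under normoxia. WDR76 was the 1 member 2-fold lower, under hypoxia, with 8.35% of all genes there.

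The 10 listed genes of base excision repair passed the filter, and 7 of them were lowest in H-si, with 25.9% of all genes. The list holds later steps of the repair and also UNG, SMUG1 and NEIL3, which are glycosylases like TDG and MBD4 and not downstream of them. After TET1-si under hypoxia 3 were at least 2-fold lower and 0 higher, with 8.35% and 12% of all genes, and the median was -0.61. Under normoxia 0 were 2-fold lower or higher, with 5.56% and 12.1% of all genes, and the median was -0.22. The 3 were LIG1, the ligase of replication and long-patch repair (45.6, 61.6, 43.0 and 19.4 FPKM), UNG, the uracil glycosylase (189, 159, 132 and 39.9 FPKM), and NEIL3 (9.80, 12.5, 5.82 and 2.86 FPKM). LIG1 and UNG serve replication as well as repair, and the S phase markers were lower in the same library. The part of S phase in the levels of these genes was not tested.

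Supply of cofactors was looked at last. Of the 14 genes of methyl donor supply 12 passed, and their median was -0.34 and -0.57 in hypoxia in scrambled and TET1-si cells and -0.27 and 0.11 after TET1-si under hypoxia and normoxia. None of the 12 differed 2-fold after TET1-si. Of all genes, 12% were 2-fold higher and 8.35% lower under hypoxia, and 12.1% and 5.56% under normoxia. All 18 genes around 2-oxoglutarate passed. After TET1-si 5 were at least 2-fold lower under hypoxia (8.35% of all genes) and 1 under normoxia (5.56%). None was 2-fold higher under hypoxia (12% of all genes) or normoxia (12.1%). OGDH, which consumes 2-oxoglutarate in the citric acid cycle, was 2-fold lower after TET1-si in both oxygen states, at 74.3, 25.2, 78.0 and 29.3 FPKM. Neighbouring genes on the chromosome were compared for the 10 genes only, so the part of such a stretch in the OGDH values was not tested. PSAT1, which yields 2-oxoglutarate during serine synthesis, was 2-fold lower under hypoxia with either hairpin, at 82.5, 44.01, 23.3 and 7.25 FPKM. The 5 genes of the hexosamine pathway, which makes the sugar donor of OGT, had a median of -0.22 and -0.77 in hypoxia in scrambled and TET1-si cells and 0.26 and 0.52 after TET1-si under hypoxia and normoxia. GNPNAT1 was 2-fold lower under hypoxia with either hairpin, at 70.8, 95.3, 31.5 and 40.02 FPKM.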

How the data were processed

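RNA was sequenced from 4 FADU samples, 1 library per group, with groups taken from the sample titles. Per the study's methods the authors prepared TruSeq mRNA libraries, sequenced reads of 100 bp on a HiSeq2000 and used TopHat/Cufflinks with Ensembl annotations on hg19, and they deposited gene-level FPKM. Versions, filters, the Ensembl release and strand are not given in the sources used here, and the labels call the reads single end where the methods say paired end. No unmapped value column was present (0). Changes in counts and medians are on the log2(FPKM + 0.1) scale, which understates low genes, with a minimum mean of 1 FPKM and a limit of 2-fold; ratios are of FPKM with no pseudocount. Rows of 111 gene IDs listed more than once (232 rows) were left out. Starts in the table count from 0, and 1 was added.

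Approximate reads were FPKM times depth times canonical transcript length (GENCODE v44lift37) less 212 bp. Depth and that offset were searched, so that at least 95.2% of low values in 1-exon genes became whole within 0.05, and the search was tested on simulated data. The identifier of UHRF1 was matched by symbol and locus. Intervals of a ratio of ratios were exact conditional for TET1 and normal on the log scale otherwise. Alternatives were the pseudocount, the filter, TPM, median-of-ratios and upper-quartile scaling, the fold limit, transcript length and the number of neighbours. Named were the 10 genes, genes from the listed pathways that were 2-fold changed the same way in both states or bear on a member, and the 3 genes most like TET1, TET2, DNMT3A and UHRF1; ZBTB4, ZBTB38, MBD2, WDR76, UHRF2, USP7, HDAC1, LIG1, UNG, NEIL3 and HELLS were named with their values known. Some listed genes are not reported by name here. The genes and lists were chosen with earlier results of these data known. Python 3.11.15, pandas 2.3.3, NumPy 2.4.6, SciPy 1.17.1 and Matplotlib 3.10.9 were used.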

Additional observations from a re-analysis of the deposited data

Results flagged for a closer look

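UHRF1 was lower after TET1-si under hypoxia and nearly level under normoxia. The ratio of TET1-si to scrambled was 0.357 under hypoxia and 1.09 under normoxia. The difference between the states was not tested, since each state had 1 library per group. The normoxia ratio became 0.970 with median-of-ratios scaling and 1.002 with upper-quartile scaling. Its log2 difference of 0.12 was close to the median of all genes, 0.15. With 1 library per group no sample could be compared with others of its group.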

How the results depend on the processing

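No paired analysis was possible because each of the 4 comparisons had 1 library per group, and leaving out a replicate could not be done for the same reason. A fit across both oxygen states or both hairpins, with 1 residual degree of freedom, was not run. The number of the 9 genes at least 2-fold different moved by more than 1.5 times in 9 of 64 recomputations. After TET1-si under hypoxia the count of higher genes went from 1 to 0 with a pseudocount of 1, with median-of-ratios scaling and with upper-quartile scaling. After TET1-si under normoxia it went from 0 to 1 without a pseudocount, with TPM and at a limit of 1.5-fold, where the count of lower genes also went from 0 to 1. At 1.5-fold, hypoxia in scrambled cells gave 1 lower gene and hypoxia in TET1-si cells 1 higher, and TET1-si under hypoxia gave 3 lower genes in place of 2, MBD4 being added. The median difference of the genes moved beyond its counting range in 6 of 28. For hypoxia in TET1-si cells it was -0.14 without a filter and -0.14 with TPM, against -0.27. For TET1-si under hypoxia it was -0.17 at a minimum of 5 FPKM and -0.17 without a filter, against 0.15, because the genes entering differ. For TET1-si under normoxia it was -0.044 with median-of-ratios and 0.0030 with upper-quartile scaling, against 0.12. Of single genes, 61 of 204 values moved beyond their counting interval, and no difference of 2-fold or more turned direction. Scaling moved the median of all genes from 0.15 to -0.0043 (median-of-ratios) or 0.20 (TPM) after TET1-si under normoxia. The longest in place of the canonical transcript changed 0 of 40 interval calls, and 50 neighbours in place of 25 moved 8 of 40 local medians by 0.1 or more. Depth limits TET1, with 11 to 76 reads per library.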
